A study of Homo sapiens with 6 samples.

Results

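The 10 genes followed here belong to the human microRNA pathway and were chosen by name, though with earlier results of these data known. They are DROSHA and DGCR8, which form the nuclear Microprocessor, XPO5, which carries precursor hairpins out of the nucleus, DICER1 and its partner TARBP2, the Argonautes AGO1, AGO2, AGO3 and AGO4, and TNRC6A, a GW182 scaffold protein. All 10 were measured, among 15894 genes in all, and 28 of the 39196 probe sets tested named 1 of them alone. The cells were RKO, an established human colon carcinoma line, and RNA was hybridised to Affymetrix PrimeView arrays, 3 labelled shCIRC and 3 labelled shEV. The shCIRC cells were stably transfected with a vector that makes a short hairpin RNA against hsa_circ_0064559, a circular RNA. The shEV cells were the control and were grown and handled in the same way. The study gave the control both as an empty vector and with a nonsense shRNA sequence, so whether shEV cells made a hairpin is not settled. The series held 1 hairpin against 1 control, and the effect of a hairpin as such and the effect of less circular RNA cannot be told apart in it. The arrays carried no probe set named for the circular RNA, so the knockdown was not checked on these arrays. Nothing in the labels tells separate cultures from repeat samples of 1 culture, so a p-value here measures the spread over 3 arrays, and that spread may be technical only.

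MicroRNAs begin as long primary transcripts, from which the Microprocessor cuts a hairpin. XPO5 exports the hairpin with Ran-GTP, DICER1 trims it to a short duplex together with TARBP2 or PRKRA, and 1 strand is loaded into an Argonaute protein. The loaded Argonaute pairs with target messenger RNAs through bases near the 5′ end of the small RNA, the seed, and GW182 proteins then recruit the enzymes that shorten the poly(A) tail and remove the cap. AGO2 is the Argonaute with well known slicing activity in human cells. Short hairpin RNAs made from a vector enter the same route at the export step, which is why these genes are of interest in a hairpin experiment.

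The designed sequences are shown because the series compares cells with and without the first of them. Whether the shEV cells carried the second is not settled, as said above. Both are given as DNA letters and without capitals, since the sources do not state which strand was used as the guide.
shCIRC: tttattatagcctgccacagc
nonsense shRNA: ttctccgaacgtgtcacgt
The first has 21 bases and the second 19. Bases 2 to 8 of each, as printed or as the reverse complement, were compared with the seeds of 2370 mature human microRNAs from RefSeq. Neither sequence shared a seed with any of them.

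Values are log2 signals as the authors normalized them, and differences are shCIRC minus shEV on that scale, so that 1 unit is a doubling of signal. Array medians were between 6.82 and 6.85. Arrays of 1 group correlated at r = 0.998 to 0.999 over the 39196 probe sets, and arrays of different groups at 0.987 to 0.988. The median SD of a gene was 0.056 in shCIRC and 0.046 in shEV. With so little spread, limma passed 47.5% of all genes at an adjusted p under 0.05, 22.8% higher and 24.7% lower in shCIRC, and the median size of a difference was 0.13. A call at this threshold was therefore common, and the size of each difference is given with it. Of the epithelial markers, 6 of 8 were measured, with mean signals of 7.86 to 7.87 in shCIRC and 7.91 to 7.95 in shEV. Of these 6, 3 were brighter than the median gene. EPCAM, an epithelial adhesion protein, had signals of 8.16, 7.94 and 8.13 in shCIRC against 8.56, 8.59 and 8.48 in shEV. KRT19, with 5.97, 5.95 and 5.93 in shCIRC, and CDX1, with 5.89, 5.89 and 5.70, were dim. These and CDX2 did not pass. CDH1 and VIL1 were not analysed here. KRT8 was higher by 0.53 in shCIRC and KRT18, its keratin partner, was lower, at -0.30. Mean signals of the 3 fibroblast markers measured of 6 were 5.44 to 5.62 in shCIRC and 5.53 to 5.60 in shEV, and those of the 5 endothelial markers 5.49 to 5.60 in shCIRC and 5.56 to 5.60 in shEV. The 4 immune markers measured of 8 averaged 7.09 to 7.21 in shCIRC and 7.46 to 7.52 in shEV, with 1 called, the lysosomal protein CD68, at -1.23. Arrays give no true zero, PTPRC, CD3D, CD14 and LYZ were not analysed here, and the part of other cell types in the results was not tested.

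Of the 10 pathway genes, 2 were higher in shCIRC cells, AGO2 and AGO3, and 7 were lower, namely XPO5, TARBP2, AGO1, DGCR8, DROSHA, DICER1 and TNRC6A. AGO4 did not pass the test. Beside these 2 of 10 and 7 of 10, the shares over all genes were 22.8% and 24.7%. Of the 10, 8 were brighter than the median gene, and calls were commoner among bright genes. A fit of the genes above the median brightness alone called 3055 higher and 3078 lower, against 3618 and 3928 over all genes. The first 2 counts are out of the brighter genes only, so their shares were larger than 22.8% and 24.7%. Of those 8 it called 2 higher and 6 lower. The shares over all genes, dim ones included, are thus a low mark for the 10. The median difference of the 10 was -0.22, and that of all genes -0.00. The median size was 0.26, against 0.13 over all genes. With a fold above 1.3 asked as well, AGO2 was the 1 gene higher and XPO5 and TARBP2 the 2 lower, where the shares over all genes were 7.44% and 9.42%. The 3 shCIRC arrays and the 3 shEV arrays did not overlap for 9 of the 10 genes, as for 56.0% of all genes. The exact permutation test, two-sided, gave p = 0.1 for each of those 9, the smallest that 3 arrays against 3 allow. In these bulk samples, a lower signal in every cell and fewer cells with the transcript cannot be told apart.

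**Figure D1:**
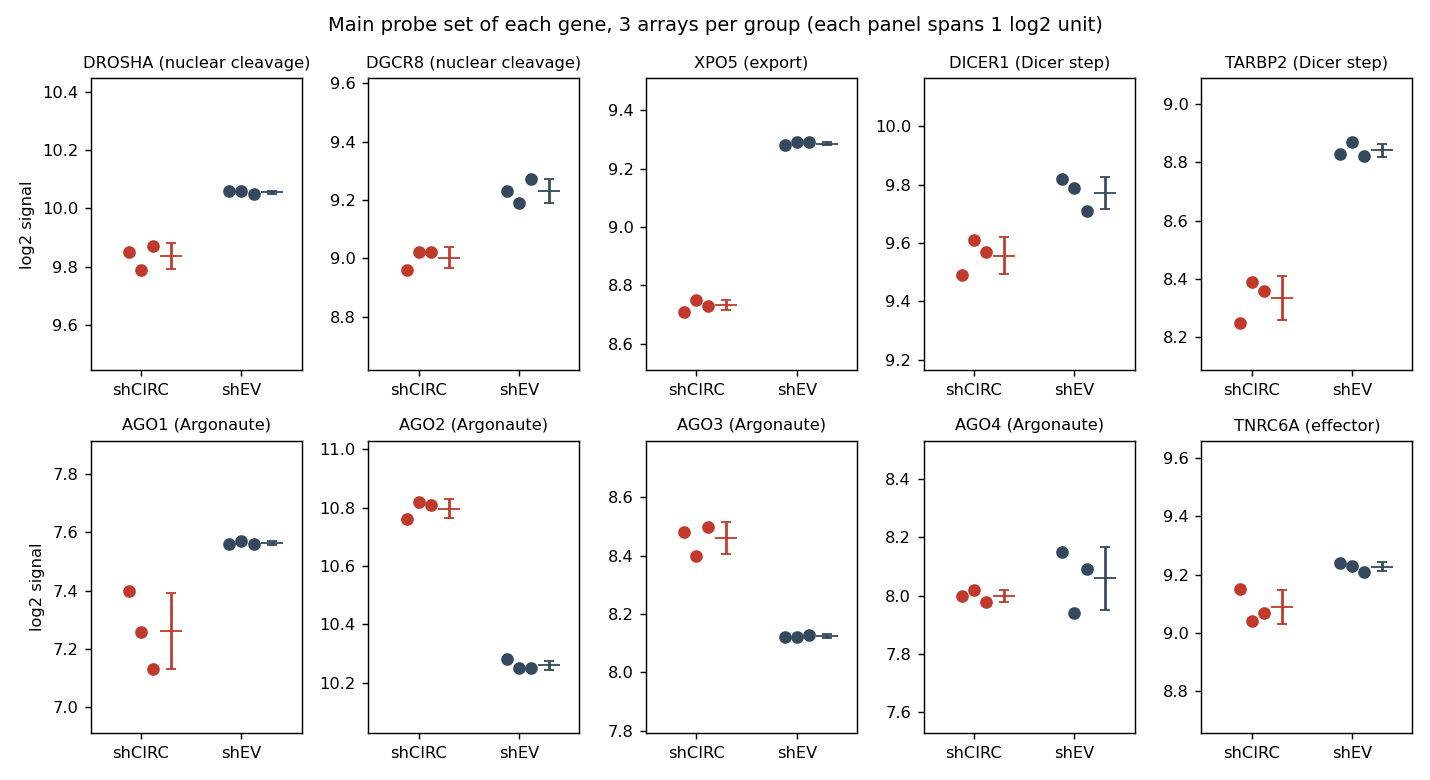
Log2 signal of the 10 microRNA pathway genes on each array, by the brightest probe set of each gene, with shCIRC left of shEV. Points are the 3 arrays of a group and bars are the mean and SD. AGO2 and AGO3 sit higher in shCIRC, AGO4 overlaps, and the other 7 genes sit lower in shCIRC.

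The Microprocessor genes were both slightly lower in shCIRC cells. DROSHA, the RNase III enzyme that cuts primary transcripts, had signals of 9.85, 9.79 and 9.87 in shCIRC against 10.06, 10.06 and 10.05 in shEV. The difference was -0.22 (SE 0.03), a fold of 1.16 lower, with a limma adjusted p of 0.00164. DGCR8, the double-stranded RNA-binding partner of DROSHA, had 8.96, 9.02 and 9.02 in shCIRC and 9.23, 9.19 and 9.27 in shEV. All 3 shCIRC arrays were below the lowest shEV array, and the group means differed by -0.23 (SE 0.04, adjusted p = 0.00192 in limma). On each array the DGCR8 signal was set against the DROSHA signal, and this gap averaged -0.83 in shCIRC and -0.82 in shEV. The change of the gap was -0.01 (exact permutation p = 0.8), and its sign turned when the probe sets of each gene were averaged, to 0.23.

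Each DROSHA probe set was lower in shCIRC, by different amounts. The 4 differences were -0.22, -0.24, -0.35 and -0.72. For the last of these the signals were 7.49, 7.55 and 7.76 in shCIRC against 8.32, 8.29 and 8.33 in shEV (adjusted p = 0.000178 over all probe sets, limma). The brightest probe set, used for the gene, was thus the one with the smallest difference, and the mean of the 4 was -0.38. DGCR8 had a second, dim probe set, which was at -0.07 and did not pass (adjusted p = 0.626 in limma). With both averaged, DGCR8 was at -0.15 and no longer called (adjusted p = 0.0644 in limma).

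XPO5, the exportin of precursor hairpins, had the largest drop of the 10 genes by the brightest probe sets. Its signals were 8.71, 8.75 and 8.73 in shCIRC against 9.28, 9.29 and 9.29 in shEV. Replicates lay within a few hundredths of each other, and the groups were far apart by comparison. The difference was -0.55 (SE 0.03), 1.47-fold lower, with an adjusted p of 1.35e-05 in limma. Its other probe set was lower by less, at -0.28.

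DICER1 and TARBP2, which act on the exported hairpin in the cytoplasm, were both lower in shCIRC, TARBP2 by more. DICER1, the RNase III enzyme that makes the mature duplex, had 9.49, 9.61 and 9.57 in shCIRC and 9.82, 9.79 and 9.71 in shEV. The groups lay close, since the highest shCIRC array was at 9.61 and the lowest shEV array at 9.71, and the difference was -0.22 (SE 0.05, limma adjusted p = 0.00755). All 4 DICER1 probe sets were lower, at -0.22, -0.24, -0.41 and -0.46. TARBP2, the double-stranded RNA-binding partner of DICER1, had 8.25, 8.39 and 8.36 in shCIRC against 8.83, 8.87 and 8.82 in shEV, at -0.51 (SE 0.04, adjusted p = 0.000121 in limma). A second TARBP2 probe set showed no such difference, at 0.01 (adjusted p = 0.944 in limma), and the mean of both was -0.25.

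The gap between TARBP2 and DICER1 on the same array averaged -1.22 ± 0.015 in shCIRC and -0.93 ± 0.049 in shEV (SD, n = 3 each). It differed by -0.29, with p = 0.1 by the exact permutation test and 0.114 after Benjamini-Hochberg adjustment over the 8 gaps compared. This order depended on the probe sets used, since averaging the probe sets of each gene gave 0.08. PRKRA, the other double-stranded RNA-binding partner of DICER1, had 9.72, 9.78 and 9.82 in shCIRC against 9.91, 9.92 and 9.83 in shEV and did not pass (-0.11, adjusted p = 0.0648 in limma).

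The 4 Argonaute genes moved in different directions. AGO2 signals were 10.76, 10.82 and 10.81 in shCIRC against 10.28, 10.25 and 10.25 in shEV. Every shCIRC array was above every shEV array, at 0.54 (SE 0.03), 1.45-fold higher (adjusted p = 2.2e-05 in limma). A single probe set named AGO2, so no other probe set could be set beside it. The deposited annotation placed it on the minus strand of chromosome 8. AGO3, an Argonaute close to AGO2 in sequence, had 8.48, 8.40 and 8.50 in shCIRC and 8.12, 8.12 and 8.13 in shEV. The difference was 0.34 (SE 0.04, adjusted p = 0.000298 in limma), or 1.26-fold higher.

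AGO1 went the other way. Its signals were 7.40, 7.26 and 7.13 in shCIRC against 7.56, 7.57 and 7.56 in shEV, the widest spread of the 10 genes in shCIRC (SD 0.13), still without overlap. The difference was -0.30 (SE 0.06), 1.23-fold lower, with an adjusted p of 0.00759 in limma. AGO4 had 8.0, 8.02 and 7.98 in shCIRC and 8.15, 7.94 and 8.09 in shEV, where the lowest shEV array fell below all 3 shCIRC arrays. Its difference was -0.06, with a 95% interval from -0.20 to 0.07 and an adjusted p of 0.426 in limma.

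Probe sets bear on 3 of the 4 Argonaute genes. Besides the brightest AGO3 probe set, 2 others were higher, at 0.43 and 0.18, and 1 was at -0.04 and did not pass (adjusted p = 0.41 in limma). For AGO4 the brightest probe set was the one nearest to 0. The other 3 were at -0.43, -0.47 and -0.21, the first 2 of them called (adjusted p = 0.000414 and 0.00233 in limma) and the last not (0.155). With the 4 averaged, AGO4 was at -0.29 and was called lower (adjusted p = 0.0015 in limma), so that the result for AGO4 rests on the choice of probe set. AGO1 had 1 probe set of its own. A further one was annotated to AGO1 and AGO3 together and was left out of both genes. Its signals were 8.59, 8.69 and 8.63 in shCIRC against 9.44, 9.44 and 9.40 in shEV, at -0.79 (SE 0.04, adjusted p = 1.0e-05 in limma). The deposited annotation, in a build not given in the sources used here, placed it at 36348815 to 36389900 on chromosome 1. This overlaps the stretch of the AGO1 probe set and ends before the first position of any AGO3 probe set, at 36396341. It was lower, as AGO1 was, and by more than the probe set of AGO1 alone.

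**Figure D2:**
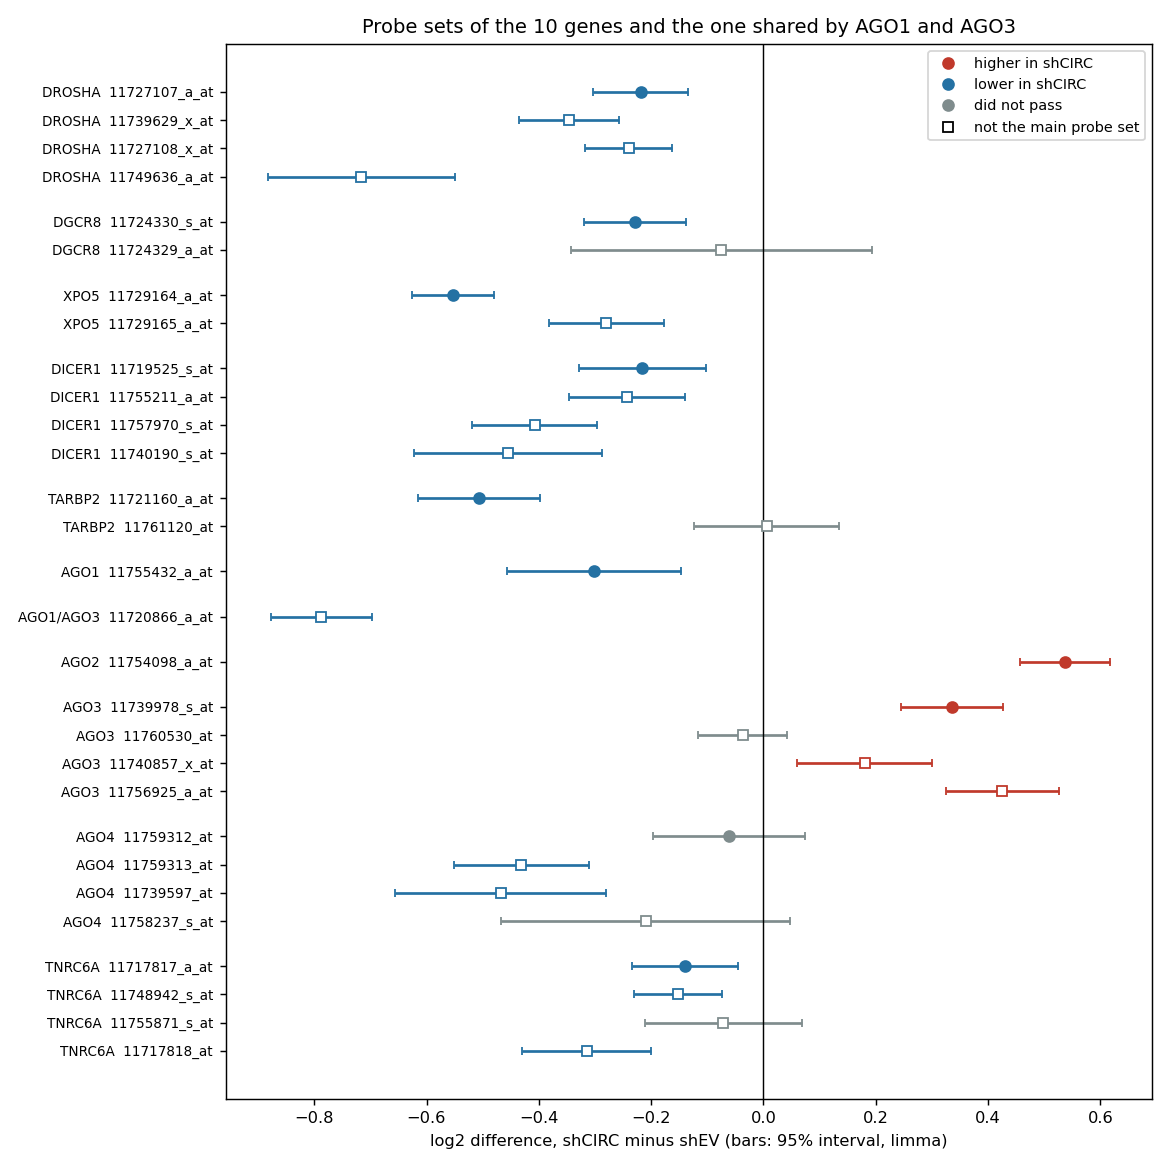
Difference in log2 signal, shCIRC minus shEV, of every probe set that named 1 of the 10 genes, and of the probe set shared by AGO1 and AGO3, with 95% intervals and filled circles for the brightest of each gene. Of the 28 single-gene probe sets, 4 were higher, 18 lower and 6 not called, and the differences ran between -0.72 and 0.54.

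Over the 28 single-gene probe sets, 4 were higher and 18 lower in shCIRC, where the shares over all probe sets were 25.4% and 24.4%, or 49.8% in either direction. The 4 that were higher belonged to AGO2 and AGO3, and no probe set of the other 8 genes was called higher. The 6 that did not pass belonged to AGO3, AGO4, DGCR8, TARBP2 and TNRC6A. Probe sets of 1 gene share its transcripts and are not replicates of it.

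Differences between Argonautes on the same array leave out any factor that scales a whole array. AGO2 minus AGO1 averaged 3.53 ± 0.16 in shCIRC against 2.70 ± 0.022 in shEV (SD, n = 3 each), and so was larger by 0.84. AGO3 minus AGO1 was larger in shCIRC by 0.64, AGO2 minus AGO4 by 0.60 and AGO3 minus AGO4 by 0.40. AGO4 minus AGO1 was larger by 0.24 and AGO2 minus AGO3 by 0.20. The exact permutation test gave p = 0.1 for each of these 6 gaps (0.114 adjusted over the 8 gaps). The groups stood apart for all 6, but only barely for AGO4 minus AGO1, where the lowest shCIRC array and the highest shEV array both rounded to 0.60. The gap of AGO4 and AGO1 moved to 0.01 when probe sets were averaged, and the other 5 stayed between 0.31 and 0.84 under that choice. Signals of different probe sets are not on a common scale, so only the change of a gap is read and not its size.

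**Figure D3:**
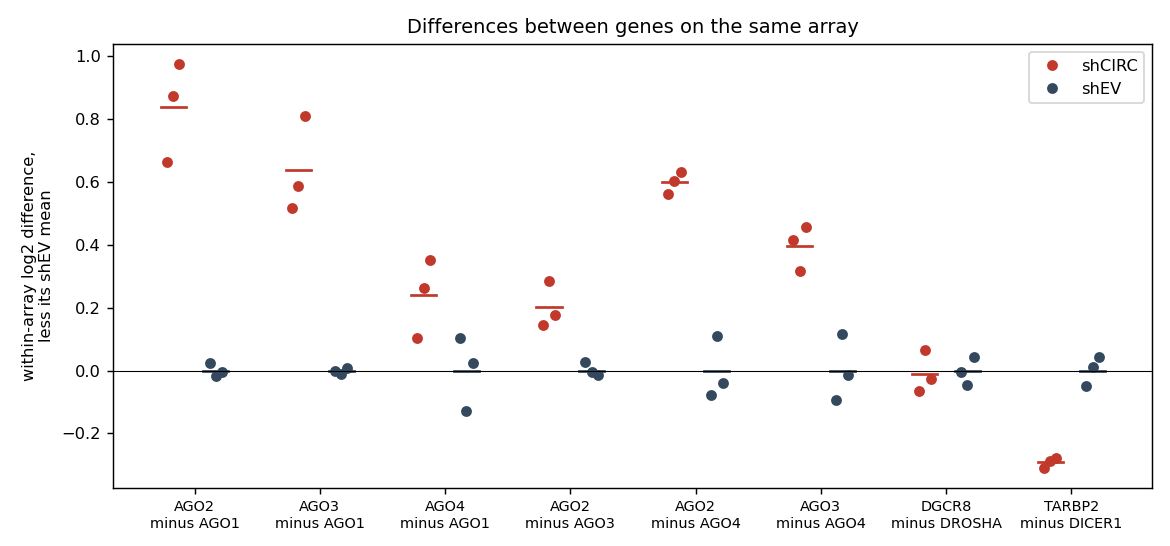
Gap in log2 signal between 2 genes on the same array, for 8 pairs, less the shEV mean of the pair, with shCIRC left of shEV. Points are arrays and lines are group means. The 6 Argonaute pairs changed by 0.20 to 0.84, TARBP2 minus DICER1 by -0.29 and DGCR8 minus DROSHA by -0.01.

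AGO4, AGO1 and AGO3 lie next to each other on chromosome 1, on the plus strand and in that order, between CLSPN and TEKT2. The deposited annotation placed their brightest probe sets at 36273777 to 36323488 for AGO4, 36335408 to 36386559 for AGO1 and 36396716 to 36522062 for AGO3, in the same unnamed build. So AGO1 was lower and AGO3 higher in shCIRC although they are neighbours on 1 strand. The AGO3 probe set at -0.04 was placed across 36396341 to 36439112, which covers the start of AGO3 and stops short of its end. Of the rest, DROSHA was placed on chromosome 5, XPO5 on 6, TARBP2 on 12, DICER1 on 14, TNRC6A on 16 and DGCR8 on 22.

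The start sites of these neighbours are shown because AGO1 was lower and AGO3 higher in shCIRC. AGO4 was not called by its brightest probe set, but was lower, as AGO1 was, with its probe sets averaged (-0.29). The 150 bases before each start are from RefSeq (GRCh38.p14, plus strand), for AGO4 chr1:35807866-35808015, for AGO1 chr1:35883059-35883208 and for AGO3 chr1:35930955-35931104. Capitals mark the GC box GGGCGG on either strand.
AGO4: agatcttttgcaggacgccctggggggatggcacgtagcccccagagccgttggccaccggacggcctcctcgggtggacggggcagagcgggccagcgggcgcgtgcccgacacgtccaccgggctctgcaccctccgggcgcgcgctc
AGO1: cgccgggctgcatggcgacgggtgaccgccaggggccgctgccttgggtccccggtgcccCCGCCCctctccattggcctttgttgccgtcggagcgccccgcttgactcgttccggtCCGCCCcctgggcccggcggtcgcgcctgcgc
AGO3: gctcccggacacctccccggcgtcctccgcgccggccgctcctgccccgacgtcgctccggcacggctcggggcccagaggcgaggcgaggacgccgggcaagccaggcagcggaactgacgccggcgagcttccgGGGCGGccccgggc
In the 250 bases before the start, 8 of the 9 genes searched held GGGCGG in at least 1 annotated window, all but AGO4, and 10 of their 15 windows did, beside 42.6% of 35116 RefSeq promoters. CCAAT stood in 8 of 15 windows (32.0% of all promoters) and CCGGAAG in 2 (8.52%), those of AGO3 and TNRC6A. No window held CACGTG (6.34% of all) or any of the words TTTCCCGC, TTTGGCGC, TTTCGCGC and TTTGCCGC (2.79%). Both strands were searched, for 9 of the 10 genes. The letters are a description of the windows and say nothing of which factor binds.

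TNRC6A, a GW182 protein that ties Argonaute to the deadenylases, had 9.15, 9.04 and 9.07 in shCIRC against 9.24, 9.23 and 9.21 in shEV. The difference was -0.14 (SE 0.04), 1.10-fold lower, with an adjusted p of 0.0213 in limma. This call was lost when shCIRC replicate 2 (adjusted p = 0.0574 in limma), shCIRC replicate 3 (0.0674), shEV replicate 1 (0.0686) or shEV replicate 2 (0.0629) was left out, and when arrays were centred on their median (-0.12, 0.0643). Its other probe sets were at -0.15, -0.31 and -0.07, the last not called (adjusted p = 0.364 in limma). Of its paralogs, TNRC6C was lower, with 6.85, 6.79 and 6.98 in shCIRC against 7.29, 7.16 and 7.10 in shEV (-0.31, limma adjusted p = 0.00721), and TNRC6B was at 0.06 and did not pass (adjusted p = 0.142 in limma).

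Signs of RNA quality moved with the groups. The control probe sets at the 3′ end minus those at the 5′ end of GAPDH averaged -0.30 ± 0.02 in shCIRC against -0.16 ± 0.02 in shEV, and those of ACTB -0.01 ± 0.03 in shCIRC against 0.13 ± 0.02 in shEV (SD, n = 3 each, exact permutation p = 0.1 for both). Both gaps were lower by 0.14 in shCIRC, which is of the order of the TNRC6A difference. The differences of DROSHA, DGCR8 and DICER1, at -0.22, -0.23 and -0.22, were not much larger in size. The part of RNA quality in the results was not tested.

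The other genes of the pathway were read from lists drawn up by role, also with earlier results of these data known. Downstream of TNRC6A, 7 of 32 silencing effectors were higher and 8 lower (median -0.04), near the shares over all genes. Of these 32, 27 were brighter than the median gene, where calls were commoner. The list nevertheless held changes larger than any of the 10 genes above. DCP2, the enzyme that removes the cap, had 11.37, 11.29 and 11.36 in shCIRC against 10.15, 10.16 and 10.19 in shEV, at 1.17 (adjusted p = 2.93e-06 in limma), with its probe sets between 0.43 and 1.19. MOV10, an RNA helicase found with Argonaute, had 9.01, 9.01 and 8.94 in shCIRC against 10.06, 10.03 and 10.02 in shEV, at -1.05 (adjusted p = 3.41e-06 in limma). PATL1, a scaffold of decapping in P-bodies, was lower at -0.80 and DCP1B, a cofactor of DCP2, higher at 0.49, though 1 PATL1 probe set was at -0.08.

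Among partners of DICER1 and of Argonaute loading, more genes were higher than lower. Of 15 genes, 8 were higher and 1 lower in shCIRC, or 53.3% and 6.67%, beside 22.8% and 24.7% of all genes, and the median was 0.10. The differences were mostly small, with a median size of 0.11 against 0.13 over all genes. With a fold above 1.3 asked as well, 1 was higher and 1 lower, beside 7.44% and 9.42% of all genes. All 15 were brighter than the median gene, where calls were commoner. TSNAX and TSN, which form the nuclease C3PO that clears passenger strands, were higher at 0.53 and 0.31. TSNAX had 9.78, 9.76 and 9.72 in shCIRC against 9.21, 9.20 and 9.27 in shEV. DNAJA2, a co-chaperone of HSP70, was higher at 0.37. The 1 gene lower was ADARB1, an adenosine deaminase of double-stranded RNA, at -0.39, with another probe set at -0.02. The balance depended on the scaling, with 6 higher and 3 lower both after quantile normalization was run again and under cyclic loess. The higher count fell to 5 without shCIRC replicate 3 and without shEV replicate 1, and the lower count was 2 without shEV replicate 3 and, beside 10 higher, with probe sets averaged.

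In nuclear export, 3 of 8 genes were higher and 4 lower (median -0.10). XPO7, another exportin, had 9.91, 9.91 and 9.92 in shCIRC against 10.44 on all 3 shEV arrays, at -0.53. RANGAP1, which stimulates GTP hydrolysis by Ran, was lower at -0.43. XPOT, the exportin of transfer RNA, was higher at 0.26, and RCC1, the exchange factor of Ran, at 0.22. The 4 lower became 2 when any array but shEV replicate 2 was left out, and also with arrays centred on their median. Of 17 nuclear processing cofactors measured of 18 listed, 4 were higher and 5 lower (median -0.00), or 7 higher and 5 lower with arrays centred on their median. METTL14, the partner of METTL3 in adenosine methylation of RNA, was higher at 0.57 and NCBP2, of the cap-binding complex, at 0.37. SAFB2, a nuclear scaffold protein, was lower at -0.51, and RNGTT, the capping enzyme, at -0.29, with probe sets of both on either side of 0.

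Among 13 genes of small RNA tailing and decay, 2 were higher and 4 lower (median -0.05), or 4 and 4 with probe sets averaged. ERI1, a 3′ to 5′ exonuclease, had 9.25, 9.33 and 9.41 in shCIRC against 10.12, 10.06 and 10.10 in shEV, at -0.76. SND1, a Tudor nuclease, was lower at -0.42 and PARN, a poly(A) ribonuclease, at -0.28, where another PARN probe set was at 0.25. XRN2, the nuclear 5′ to 3′ exonuclease, was higher at 0.28.

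**Figure D4:**
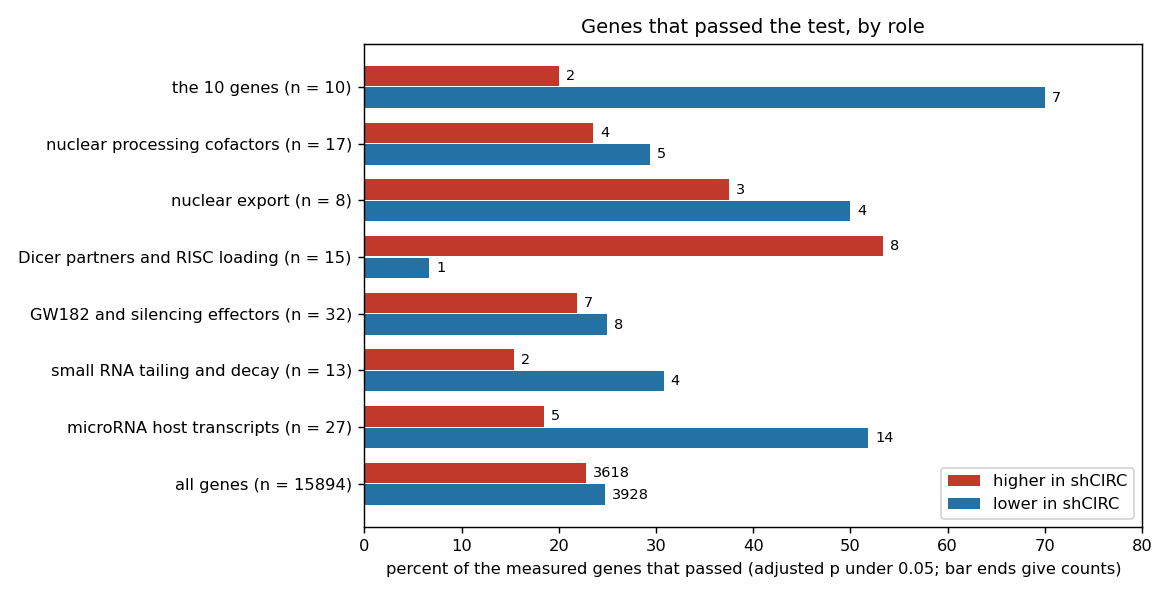
Percent of the measured genes of each list that passed the test, higher in shCIRC above and lower below, with counts at the bar ends and all genes at the bottom. Partners of DICER1 and of loading had 8 higher and 1 lower (6 and 3 under cyclic loess), and host transcripts 5 higher and 14 lower, against 22.8% and 24.7% of all genes.

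Host transcripts carry microRNA hairpins, mostly in their introns, and so are the input of the pathway. The arrays did not measure mature microRNAs, and a host signal is that of the spliced transcript. Of 37 hosts listed, 27 were measured, of which 5 were higher and 14 lower, or 18.5% and 51.9%, beside 22.8% and 24.7% of all genes. Their median was -0.14 and their median size 0.33. With a fold above 1.3 asked as well, 2 were higher and 10 lower, beside 7.44% and 9.42% of all genes. Of the 27, 19 were brighter than the median gene, where calls were commoner. By RefSeq coordinates 26 of the 27 hold a hairpin on their own strand, 36 hairpins in all, and of these 26 genes 5 were higher and 13 lower. The other gene, DLEU1, was lower, at -0.52.

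The microRNAs of the hosts described next are printed so that shared seeds can be seen. Letters are from RefSeq (GRCh38.p14), and capitals mark the seed, bases 2 to 8.
hsa-miR-26a-5p: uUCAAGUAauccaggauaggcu
hsa-miR-26b-5p: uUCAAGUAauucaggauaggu
hsa-miR-335-5p: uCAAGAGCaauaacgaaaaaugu
hsa-miR-98-5p: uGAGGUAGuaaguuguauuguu
hsa-let-7f-5p: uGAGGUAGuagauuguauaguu
hsa-miR-15a-5p: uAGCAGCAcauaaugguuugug
hsa-miR-15b-5p: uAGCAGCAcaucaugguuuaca
hsa-miR-16-5p: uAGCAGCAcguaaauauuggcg
hsa-miR-93-5p: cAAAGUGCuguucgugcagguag
hsa-miR-106b-5p: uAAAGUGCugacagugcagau
hsa-miR-22-3p: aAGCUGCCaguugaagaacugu
hsa-miR-103a-3p: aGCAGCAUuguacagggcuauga
hsa-miR-107: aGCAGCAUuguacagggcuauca
CTDSPL holds miR-26a at chr3:37969413-37969434 on the plus strand, CTDSP2 holds it again at chr12:57824658-57824679 on the minus strand, and CTDSP1 holds miR-26b at chr2:218402657-218402677 on the plus strand. These 3 small phosphatases of RNA polymerase II thus host 1 seed, UCAAGUA, and all 3 were lower. CTDSPL had 8.12, 8.06 and 8.13 in shCIRC against 9.78, 9.69 and 9.71 in shEV, at -1.62 (adjusted p = 2.72e-06 in limma), 3.08-fold lower. CTDSP2 had 10.30, 10.38 and 10.33 in shCIRC against 11.16, 11.17 and 11.16 in shEV, at -0.83 (adjusted p = 6.0e-06 in limma). CTDSP1 had 8.75, 8.89 and 8.83 in shCIRC against 9.34, 9.40 and 9.36 in shEV, at -0.54. The groups were apart for all 3, and every probe set of these genes was at or below -0.19.

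MEST, an imprinted gene that holds miR-335 at chr7:130496126-130496148 on the plus strand, had 7.75, 7.99 and 8.10 in shCIRC against 9.53, 9.51 and 9.61 in shEV, at -1.60 (adjusted p = 1.7e-05 in limma). Its probe sets ran between -1.60 and -0.31. HUWE1, a ubiquitin ligase that holds miR-98 and let-7f on chromosome X, both with the seed GAGGUAG, had 9.44, 9.46 and 9.52 in shCIRC against 10.28, 10.30 and 10.33 in shEV. It was at -0.83, while another HUWE1 probe set was at -0.01.

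The hosts of this paragraph, and CTDSP1 above, were chosen after their values were seen, for seeds that are shared or for a rise. SMC4, a condensin subunit that holds miR-15b and miR-16, was lower at -0.61, and DLEU2, a long noncoding RNA that holds miR-15a and another copy of miR-16, at -0.33. Both thus host the seed AGCAGCA, which miR-15 and miR-16 share. MCM7, a subunit of the replicative helicase that holds miR-93 and miR-106b with the seed AAAGUGC, was lower at -0.44. SREBF2 and SREBF1, regulators of lipid synthesis that hold miR-33a and miR-33b with the seed UGCAUUG, were lower at -0.43 and -0.14, and NFYC, a CCAAT-binding subunit that holds miR-30c and miR-30e with the seed GUAAACA, at -0.25. The probe sets of NFYC ran between -1.18 and 0.02. Hosts of 2 other shared seeds were not called lower by their brightest probe sets. PANK1, PANK2 and PANK3, pantothenate kinases whose miR-107 and miR-103a share the seed GCAGCAU, were at 0.08, 0.01 and -0.06 and did not pass (limma adjusted p = 0.641, 0.731 and 0.366). This rests on the choice of probe set, since those of PANK2 ran between -0.29 and 0.51 and those of PANK3 between -0.06 and 0.54. SKA2, a spindle protein that holds miR-301a and miR-454 with the seed AGUGCAA, was higher at 0.12 (limma adjusted p = 0.0257), while another SKA2 probe set was at -0.005. Among the hosts that were higher, MIR22HG, which holds miR-22, had 10.18, 10.28 and 10.24 in shCIRC against 9.45, 9.48 and 9.46 in shEV, at 0.77.

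**Figure D5:**
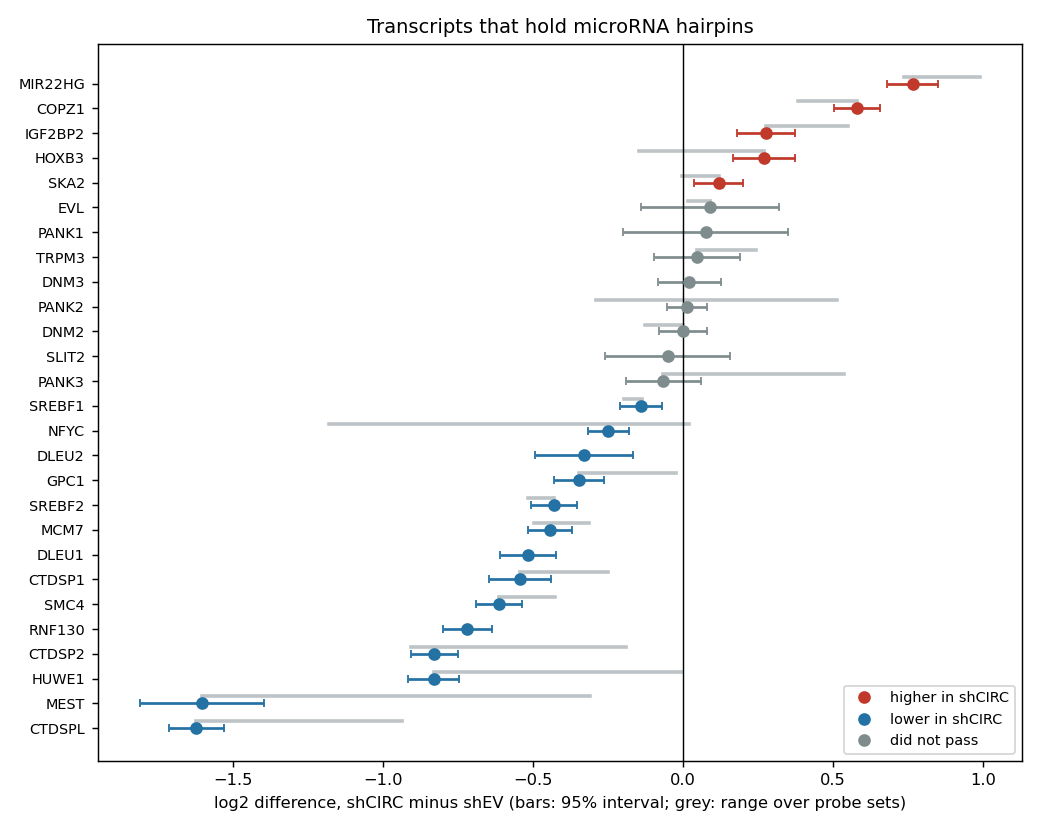
Difference in log2 signal, shCIRC minus shEV, of the 27 measured host transcripts of microRNAs, by the brightest probe set, with 95% intervals and, in grey, the range over the probe sets of each gene. CTDSPL and MEST are lowest at -1.62 and -1.60, MIR22HG is highest at 0.77, and 14 were called lower and 5 higher.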

How the data were processed

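Total RNA of 6 samples, 3 shCIRC and 3 shEV (6 µg each), was hybridised to PrimeView arrays. The authors deposited log2 signals per probe set, normalized between arrays by quantiles, and the submitters' processing notes name GCOS 1.4. The value table held 49395 probe sets, of which 39269 recurred with annotation and identical values. The annotated table also held the authors' own p-values, FDR and fold changes, which were not used. Depth is not defined for arrays, and the precision is limited by 3 arrays per group.

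Of the annotated probe sets, 37458 named 1 gene and were kept, and 37380 of these were matched to RefSeq (GRCh38.p14) by gene number for current symbols. Each of 15894 genes was represented by its brightest probe set over the 6 arrays. Groups were compared with limma 3.58.1 in R 4.3.3 (lmFit and eBayes), two-sided, with Benjamini-Hochberg adjustment over all genes, or over 39196 probe sets where probe sets are given, and a threshold of 0.05. The methods name Student's test, which was run as an alternative. The code was tested on simulated data. Gaps between genes and RNA quality were compared by exact permutation over the 6 arrays.

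The 10 genes and all lists were chosen with earlier results of these data known. All 10 genes are named, and in each other list up to 4 called genes with the largest difference, plus PRKRA, TNRC6B and TNRC6C. Alternatives were other scalings, other choices of probe set, filters, tests and leaving out each array.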

Additional observations from a re-analysis of the deposited data

How the results depend on the processing

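The 10 genes kept their direction under every alternative run (16 for AGO1 and AGO4, 17 for each other gene). Several of these reused the same signals, so the direction could not turn in them. They were the brightness filter, the t-test, limma with trend and robust, the replicate block and both fits of single probe sets. Averaging could likewise not turn AGO1 and AGO2, with 1 probe set each. The calls held too, except DGCR8 and AGO4 with probe sets averaged and TNRC6A as given with its values. At an adjusted p under 0.01 in limma, 2 of the 10 were higher and 6 lower, with TNRC6A (0.0213) not called. Asking for a fold above 1.3 left 1183 genes higher and 1498 lower, and 1 and 2 of the 10. With every probe set on its own, 9959 probe sets were higher and 9554 lower. When the larger set of deposited values was used as a whole, 9735 were higher and 9229 lower. These are counts of probe sets and not of genes. Leaving out each array gave 3177 to 3433 genes higher and 3540 to 3782 lower, and of the 10 genes 2 to 2 higher and 6 to 7 lower. The change of DGCR8 minus DROSHA, -0.01, turned to 0.23 with probe sets averaged, to 0.017 without shCIRC replicate 1 and to 0.014 without shEV replicate 3 (range without 1 array -0.045 to 0.017), and that of TARBP2 minus DICER1, -0.29, to 0.0802 with probe sets averaged. Beyond the averaging itself, the cause was not tested. With the replicate number as a block, 3591 genes were higher and 3842 lower, and 2 and 7 of the 10, so no call of the 10 changed. Same-numbered arrays had correlated deviations of only 0.066, 0.086 and 0.099, and the numbers were not taken to pair them, though each array correlated best with its own number. The methods' t-test gave 3297 genes higher and 3562 lower after adjustment, and 3827 and 4090 at P under 0.05. Groups of 3 are too small to test single arrays as outliers.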

Other observations

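The PIWI clade of Argonautes and its partners act mainly in germ cells and serve as a contrast to AGO1 to AGO4. Of 10 such genes listed, 2 were measured, PIWIL2 and PIWIL4, with mean signals of 4.96 to 5.27 in shCIRC and 5.23 to 5.35 in shEV, and neither passed the test in limma (adjusted p = 0.16 and 0.212). The others were not analysed here. Besides MIR22HG, COPZ1, a coatomer subunit that hosts a microRNA, was higher in shCIRC at 0.58, and RNF130, a ubiquitin ligase, was lower at -0.72. Both were chosen after their values were seen.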
